A study of Mus musculus with 20 samples.

Results

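H3K27ac, the acetylation of lysine 27 of histone H3, was profiled across the genome by Cut&Tag in 4 libraries of cells of the Nkx2.1 lineage, 2 from WT and 2 from Tcf4 cKO neocortex, out of 20 samples of the study. The members of the comparison were all peaks of these 4 libraries, merged wherever they overlapped or touched into 41182 regions on GRCm38 (mm10). A region was called lost when both WT libraries and neither Tcf4 cKO library held a peak, gained in the reverse case, and kept when all 4 libraries held a peak. By this rule 1744 regions were lost (4.23% of all), 1041 were gained (2.53%) and 13799 were kept (33.5%). WT mice carried Nkx2.1-Cre and the Ai3 reporter, which makes GFP after recombination, and Tcf4 cKO mice carried 2 floxed alleles of Tcf4 with the same Cre and reporter. Both genotypes therefore shared the Cre, and the cells were GFP-positive neocortical cells sorted at postnatal day 7 or 8, 50000 per library. The driver marks the descendants of ventral progenitors, so interneurons and glia were sorted together. Whether a library came from 1 or several brains was not given in the sources used here, so tests over libraries measure the spread between these libraries, which may be technical.

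H3K27ac is laid down on the nucleosomes beside active promoters and enhancers, and removed when these elements are shut. In Cut&Tag an antibody against the mark directs a transposase that cuts and tags the DNA around it. Tcf4 is a class I basic helix-loop-helix factor, or E protein, which pairs with tissue-specific partners such as Olig2 and reads the E-box, whose letters are CANNTG. The question of the comparison was which acetylated elements differed between WT and Tcf4 cKO cells, where oligodendrocyte and astrocyte genes are in view.

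The sequences below are examples of changed elements at lineage genes, each 151 bases on the forward strand of GRCm38, with every CANNTG in capitals. The first set are the 5 lost regions at oligodendrocyte-lineage genes that held Tcf4, shown around the highest anti-Flag summit, or, at Cspg4, around the H3K27ac summit.
Myrf, intron, chr19:10232493-10232643: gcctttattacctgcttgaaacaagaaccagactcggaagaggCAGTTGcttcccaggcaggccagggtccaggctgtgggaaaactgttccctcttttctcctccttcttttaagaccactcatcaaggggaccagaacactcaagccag
Tcf7l2, intron, chr19:55757005-55757155: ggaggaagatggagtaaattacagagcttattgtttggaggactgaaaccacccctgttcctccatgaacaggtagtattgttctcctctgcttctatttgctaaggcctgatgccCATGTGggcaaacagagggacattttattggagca
Tcf7l2, intergenic, chr19:55951526-55951676: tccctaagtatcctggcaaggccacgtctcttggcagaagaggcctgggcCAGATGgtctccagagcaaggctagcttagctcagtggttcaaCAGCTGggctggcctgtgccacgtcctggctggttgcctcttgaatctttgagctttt
Nkx2-2, intron, chr2:147181070-147181220: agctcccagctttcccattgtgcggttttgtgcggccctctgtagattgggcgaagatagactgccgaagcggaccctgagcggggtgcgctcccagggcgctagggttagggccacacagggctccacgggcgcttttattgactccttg
Cspg4, intron, chr9:56880934-56881084: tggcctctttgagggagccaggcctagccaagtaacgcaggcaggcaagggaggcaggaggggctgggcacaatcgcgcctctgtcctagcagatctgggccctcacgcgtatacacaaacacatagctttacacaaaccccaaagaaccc
The Myrf element had 1 E-box, CAGTTG, 29 bases from the Tcf4 summit. The Tcf7l2 intron had 1, CATGTG, 44 bases away, and the intergenic Tcf7l2 element had 2, CAGATG and CAGCTG, the nearer 21 bases away. The Nkx2-2 and Cspg4 windows held no CANNTG. When the peak lists were cut to equal length, the Myrf, Nkx2-2 and Cspg4 regions were no longer called lost. The second set are gained regions, the first pair at their anti-Flag summits and the others, which held no Tcf4, at their H3K27ac summits.
Stat3, promoter, chr11:100905199-100905349: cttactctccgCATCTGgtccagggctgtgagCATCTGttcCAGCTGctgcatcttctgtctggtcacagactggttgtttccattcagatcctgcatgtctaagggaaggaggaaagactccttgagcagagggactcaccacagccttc
Olig1, intergenic, chr16:91304091-91304241: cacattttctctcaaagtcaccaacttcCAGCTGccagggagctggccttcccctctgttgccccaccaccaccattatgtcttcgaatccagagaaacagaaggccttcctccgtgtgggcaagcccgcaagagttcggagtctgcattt
Nfib, intron, chr4:82384383-82384533: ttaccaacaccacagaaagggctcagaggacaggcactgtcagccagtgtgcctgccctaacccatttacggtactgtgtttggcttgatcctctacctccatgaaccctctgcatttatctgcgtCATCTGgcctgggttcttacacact
Aldh1l1, intron, chr6:90541493-90541643: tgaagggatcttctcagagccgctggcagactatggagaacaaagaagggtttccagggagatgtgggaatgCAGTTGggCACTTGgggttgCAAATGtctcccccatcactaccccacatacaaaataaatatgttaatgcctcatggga
E-boxes were thus present in both sets: 3 in the Stat3 window, 1 in the Olig1 window, 1 in the Nfib window and 3 in the Aldh1l1 window. A match is a description of the letters and not a binding site. The half-site TTGGCA of the NFI factors, searched on both strands, was in the intergenic Tcf7l2 window and in none of the other windows shown.

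The 4 lists were of unequal length. WT replicate 1 held 28413 peaks, WT replicate 2 held 24477, Tcf4 cKO replicate 1 held 26644 and Tcf4 cKO replicate 2 held 22026. The genotypes overlapped in number (two-sided exact permutation test, p = 0.67, where 0.33 is the smallest p that 2 against 2 libraries can give). They overlapped in length too, from 14.1 to 19.3 Mb of the genome per library. No read numbers come with the lists, so depth is unknown beyond these peak numbers. Every H3K27ac value below is the fold enrichment of a peak over the local background of its own library, and a missing peak means that none passed the q-value threshold of 0.05, not that acetylation was zero. In a sorted mixture, fewer cells of a type and less of the mark per cell cannot be told apart.

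The Tcf4 gene itself, nearest to 31 regions, had 4 kept, 0 lost and 0 gained, with 15, 22, 16 and 15 of its regions present in WT replicates 1 and 2 and Tcf4 cKO replicates 1 and 2. Peak lists cannot check the deletion of an exon, so the genotype labels were not tested here. Markers of the sorted cells were acetylated: 19 of 28 oligodendrocyte-lineage genes, 21 of 28 astrocyte-lineage genes and 11 of 21 interneuron genes had a kept region. Of 10 microglial genes 0 had one, and of 10 endothelial and mural genes 3 did.

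Peaks present in both libraries of 1 genotype and absent from the other were a small part of the landscape. The 1744 lost regions were 4.23% of all regions and the 1041 gained regions 2.53%, against 33.5% kept and 39.5% held by a single library. Combinations that mix the genotypes gave comparable numbers. WT replicate 1 and Tcf4 cKO replicate 1 alone shared 1540 regions, and the remaining mixed pairs shared 798, 696 and 386. The lost regions were thus the most frequent of the 6 pairs of libraries, and the gained regions came after the mixed pair of both first replicates, whose lists were the longest. When each list was cut to its 22026 strongest peaks by q-value, the lost regions fell in number to 1233 and the gained regions rose to 1151, so the excess of lost over gained regions moved with list length.

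**Figure D1:**
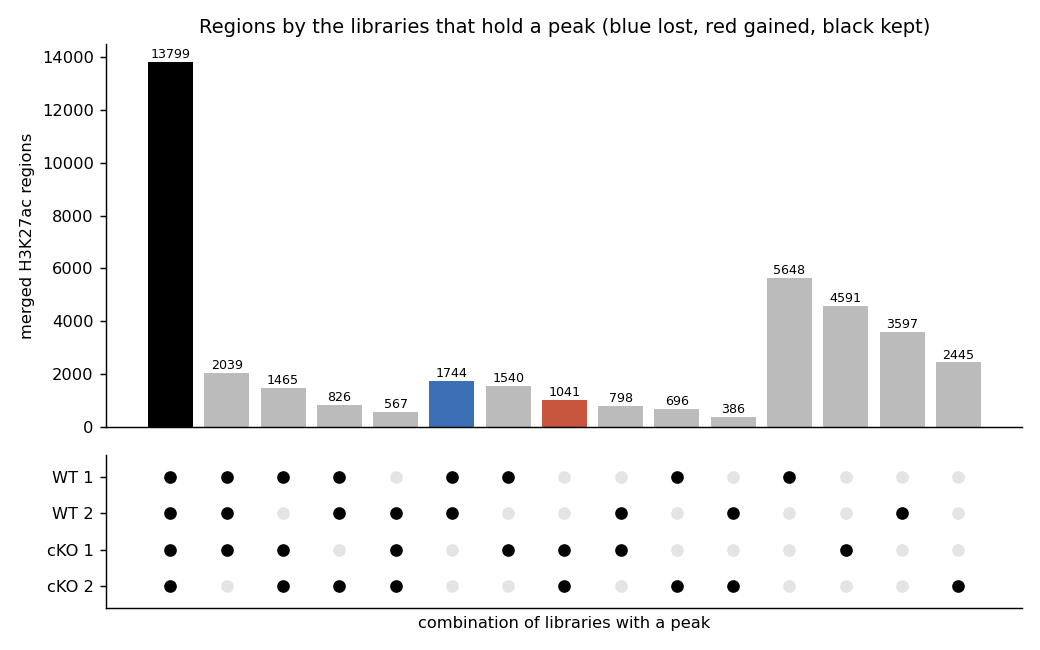
Number of merged H3K27ac regions (vertical axis) for each combination of libraries that held a peak, with filled dots under a bar marking the libraries. The 13799 kept regions (black) outnumber the 1744 lost (blue) and 1041 gained (red) regions, and the mixed pair of both first replicates reaches 1540.

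Lost and gained regions were mostly distal, narrow and weak, while kept regions were mostly promoters. A promoter region lay within 1 kb of an annotated start site. Promoters made up 27.5% of lost regions (95% Wilson interval 25.5 to 29.7), 22.4% of gained regions (233 of 1041) and 75.5% of kept regions (74.8 to 76.2), against 40.9% of all regions. These intervals cover counting error only. With a −log10 q of 5 or more required of every peak, promoters made up 49.8% of lost and 41.8% of gained regions. Introns of protein-coding genes held 38.7% of lost and 45.3% of gained regions, and intergenic DNA 31.6% and 29.2%. The median width was 593 bp for lost, 570 bp for gained and 1094 bp for kept regions. Median fold enrichment at lost regions was 3.97 and 4.02 in the WT libraries, and at gained regions 3.88 and 3.90 in the Tcf4 cKO libraries, below the 4.43 to 4.70 of kept regions in the 4 libraries. Few changed regions were edges of kept ones, since 2.24% of lost and 3.55% of gained regions lay within 1 kb of a kept region. The weaker of both peaks reached a −log10 q of 5 at 142 lost regions (8.14%) and 76 gained regions (7.30%), and stayed under 2 at 71 and 65. Its median was 3.24 for lost and 3.20 for gained regions, where the lowest value of any H3K27ac peak was 1.31.

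Tcf4 itself had been mapped by anti-Flag Cut&Tag in 2 libraries of 200000 nuclei from mice whose endogenous Tcf4 carries a Flag/HA tag in the Nkx2.1 lineage. These were control mice, so Tcf4 was mapped in the chromatin of cells that were not Tcf4 cKO. Distal regions held Tcf4 more often when their acetylation was found in WT. Regions overlapping 1 of the 14089 Tcf4 regions present in both anti-Flag libraries made up 28.2% of distal lost regions (357 of 1264, 95% Wilson interval 25.8 to 30.8) and 7.67% of distal gained regions (62 of 808, 6.03 to 9.72). Distal regions held by 1 WT and 1 Tcf4 cKO library, which also had 2 peaks, lay between at 15.1%, and the share over all distal regions was 18.3%. The same order held among regions with a single peak, at 9.51% for a WT peak and 3.66% for a Tcf4 cKO peak. Among regions with 3 peaks it was 36.1% with both WT libraries and 18.6% with both Tcf4 cKO libraries. Distal kept regions had Tcf4 most often, at 56.1%. Each anti-Flag library alone gave this order, with 54.6% and 31.1% of lost regions, 21.8% and 10.8% of gained regions, and 80.5% and 58.8% of kept regions. Promoters followed it too, with Tcf4 at 32.1% of lost, 12.4% of gained and 67.9% of kept promoter regions. In the WT libraries of ATAC-seq, which finds accessible DNA, 81.8% and 89.8% of distal lost regions had a peak. For distal gained regions these shares were 54.7% and 65.5%. Whether this accessibility in WT cells underlies the difference in Tcf4 was not tested.

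**Figure D2:**
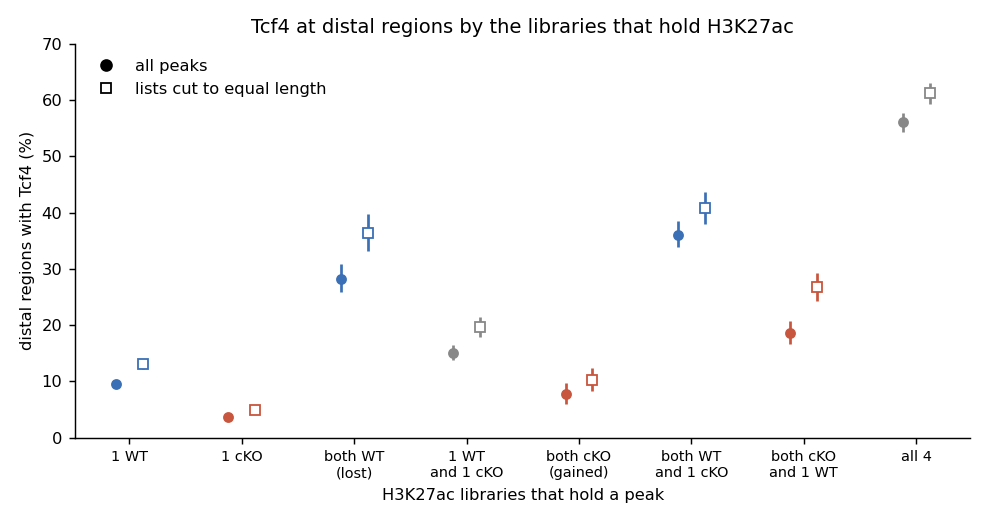
Percentage of distal H3K27ac regions that overlapped a Tcf4 region (vertical axis), by the H3K27ac libraries that held a peak, for all peaks (filled circles) and for lists cut to equal length (open squares), with 95% Wilson intervals. At each number of libraries the WT-held regions (blue) lie above the Tcf4 cKO-held regions (red), 28.2% against 7.67% for lost and gained.

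With the lists cut to equal length the shares were 36.4% of distal lost and 10.2% of distal gained regions. The gap narrowed where a WT library was left out, to 15.0% against 13.2% without WT replicate 1 and to 14.0% against 11.99% without WT replicate 2, where lost regions are peaks of a single WT library. With a −log10 q of 5 or more required of every H3K27ac peak, both shares were higher, at 55.5% of distal lost and 28.9% of distal gained regions. Median fold enrichment at distal lost regions in WT replicates 1 and 2 was 4.03 and 3.99 with Tcf4, and 4.04 and 4.08 without it.

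Chromatin at most lost elements was open in both genotypes, and gained elements were open in WT less often than all distal regions. An ATAC-seq peak, which marks accessible DNA, was present at distal lost regions in 81.8% and 89.8% of cases in the WT libraries and 78.0% and 76.3% in the Tcf4 cKO libraries. At distal gained regions the shares were 54.7% and 65.5% in WT and 72.3% and 70.5% in Tcf4 cKO. Over all distal regions they were 60.1% and 68.9% in WT and 64.1% and 62.1% in Tcf4 cKO. The genotypes did not overlap in the lost or in the gained class. The mean difference, Tcf4 cKO minus WT, was −8.62 percentage points at lost and 11.3 percentage points at gained regions (n = 2 each), while over all distal regions it was −1.41 with overlapping genotypes and at kept regions −0.52. Leaving out a WT library moved the sizes at lost and gained regions but not their direction. Without WT replicate 1 the difference was −12.6 percentage points at lost and 5.94 at gained regions, and without WT replicate 2 it was −4.63 and 16.7. Over all distal regions it was −5.82 without WT replicate 1 and 3.00 without WT replicate 2. With H3K27ac lists of equal length it was 8.51 at gained regions. All 4 ATAC-seq libraries held a peak at 68.4% of distal lost and 48.4% of distal gained regions, against 52.1% of all distal regions. Accessibility followed acetylation at few regions: peaks of both WT libraries alone were found at 4.11% of lost regions against 2.29% of all distal regions, and peaks of both Tcf4 cKO libraries alone at 8.17% of gained regions against 1.82%.

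H3K4me1, the methylation found at primed and active enhancers, did not overlap between genotypes at gained regions, nor over all distal regions, and overlapped at lost ones. At distal gained regions 56.9% and 62.6% had a peak in the WT libraries and 76.0% and 74.0% in the Tcf4 cKO libraries. At distal lost regions the shares were 72.6% and 76.6% in WT and 75.5% and 73.7% in Tcf4 cKO, which overlapped. The Tcf4 cKO lists of this mark were longer, and the genotypes did not overlap at distal kept regions either. The difference, Tcf4 cKO minus WT, was 6.22 percentage points over all distal regions and 5.90 at kept ones. It was 15.2 at gained and −0.04 at lost regions. H3K27me3, the Polycomb mark of silenced genes, was found at few distal regions, at 7.44% to 10.2% of lost and 3.84% to 6.19% of gained regions over the 4 libraries, with overlapping genotypes in both classes. At distal kept regions it was more frequent, at 14.7% and 18.3% in WT and 14.1% and 12.8% in Tcf4 cKO. With 2 libraries each, the exact permutation test over libraries cannot give a p under 0.33 for any of these shares.

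**Figure D3:**
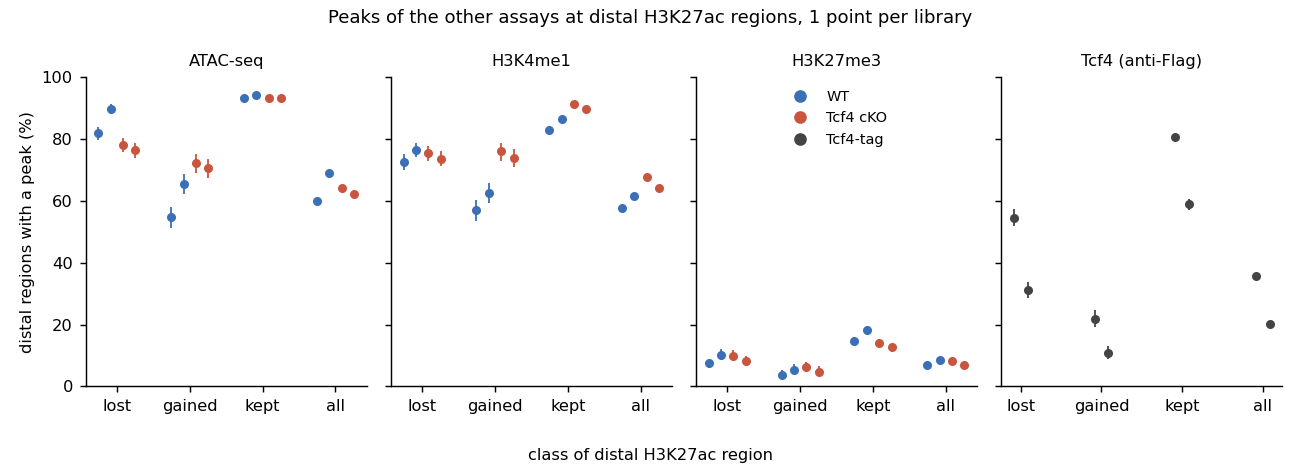
Percentage of distal H3K27ac regions of each class (horizontal axis) that overlapped a peak of ATAC-seq, H3K4me1, H3K27me3 or anti-Flag Tcf4, 1 point per library with its 95% Wilson interval. ATAC-seq points of WT (blue) lie above those of Tcf4 cKO (red) at lost regions and below them at gained regions.

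Genes of the oligodendrocyte lineage, from progenitor to myelinating cell, were nearest to 150 regions, of which 11 were lost (7.33%, against 4.23% of all regions) and 5 gained (3.33%, against 2.53%). The lost regions lay at 8 of 28 genes, and 5 of the 11 held Tcf4, against 28.2% of all distal and 32.1% of all promoter lost regions. Transcription factors of the lineage came first. Myrf, which switches on myelin genes, lost an intronic region (chr19:10232398-10233334) with a fold enrichment of 2.75 and 3.15 in the WT libraries and no peak in Tcf4 cKO. It held Tcf4, and ATAC-seq and H3K4me1 peaks were present in all libraries of both genotypes. Tcf7l2, a Wnt effector of differentiating oligodendrocytes, lost an intronic region (chr19:55756400-55757162) with 3.63 and 4.50, and an intergenic region (chr19:55951409-55951956) with 4.10 and 3.44, both with Tcf4. Nkx2-2, a homeodomain factor that times differentiation, lost a region 4491 bp from its start with 2.40 and 2.61, which also carried H3K27me3 in all 4 libraries. Olig2, the bHLH factor that specifies the lineage, lost an intergenic region 55365 bp away with 3.33 and 4.37 that held no Tcf4.

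Surface and enzyme genes of the lineage followed. Cspg4, the NG2 proteoglycan of progenitors, lost an intronic region with 2.28 and 2.33, the weakest of the list, with Tcf4. Ugt8a, which makes the galactolipids of myelin, lost an intronic region with 3.69 and 4.04, and C1ql1, a secreted protein of progenitors, lost a region with 3.68 and 4.55. Zfp536, a zinc finger gene, was the nearest gene to 3 lost regions with 3.15 to 4.23, from 136530 to 265909 bp away. It was also nearest to 1 gained region with 3.86 and 4.75, 84415 bp away. The gained regions of the list were nearest to Bcas1, Lhfpl3, Olig1, Vcan and Zfp536, that of Vcan 136126 bp away in an intron of Xrcc4. Only the Olig1 region, with 2.73 and 2.81, held Tcf4. These counts leaned on weak peaks. With lists of equal length 4 of 119 regions of the list were lost, against 1233 of 34793 regions in all. The list then had no higher share of lost regions than all regions. The 4 were both Tcf7l2 regions, that of Ugt8a and 1 of the Zfp536 regions. The lost regions of Myrf, Olig2, Nkx2-2, C1ql1 and Cspg4 were no longer called. When only peaks with a −log10 q of 5 or more were used, 2 of 864 lost regions lay at oligodendrocyte-lineage genes, against 11 of 1744 with all peaks.

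Astrocyte-lineage genes were nearest to 153 regions, of which 8 were gained (5.23%, against 2.53% of all regions) and 5 lost (3.27%, against 4.23%). The highest gained region was in an intron of Nfib, an NFI factor of gliogenesis (chr4:82384311-82384917), with 4.62 and 5.14 in the Tcf4 cKO libraries, no peak in WT, no Tcf4, and ATAC-seq peaks in all 4 libraries. Stat3, the transducer of gliogenic cytokines, gained a promoter region with 4.93 and 3.61, the only one of the 8 with Tcf4. Gja1, connexin 43 of astrocyte gap junctions, was the nearest gene to a gained region 460546 bp away with 4.12 and 4.47, where ATAC-seq peaks were found in the Tcf4 cKO libraries alone. Slc7a10, an amino acid transporter of astrocytes, gained 2 regions, and its intronic one, with 3.10 and 3.03, also had ATAC-seq peaks in Tcf4 cKO alone. Aldh1l1, a folate enzyme that marks astrocytes, gained an intronic region with 3.45 and 2.80, and Aqp4, the water channel of astrocyte endfeet, an intergenic one with 3.93 and 4.50. Mfge8, a secreted bridging protein for phagocytosis, gained a promoter region with 3.16 and 3.62. That region had no ATAC-seq peak in any library and an H3K4me1 peak in WT replicate 1 alone. Of the 8 gained regions 5 had ATAC-seq peaks in all 4 libraries. The 5 lost regions were nearest to Sox9, Fabp7, Id3 (38167 bp away), Id4 (318488 bp away) and Cldn10, with fold enrichment from 2.76 to 5.11. None overlapped a Tcf4 region held by both anti-Flag libraries, although the Sox9 region overlapped separate peaks of each. With lists of equal length 8 of 133 regions of the list were gained and 3 lost, against 1151 gained and 1233 lost of 34793 regions in all. Of the 8 gained regions described here 7 were still called.

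**Figure D4:**
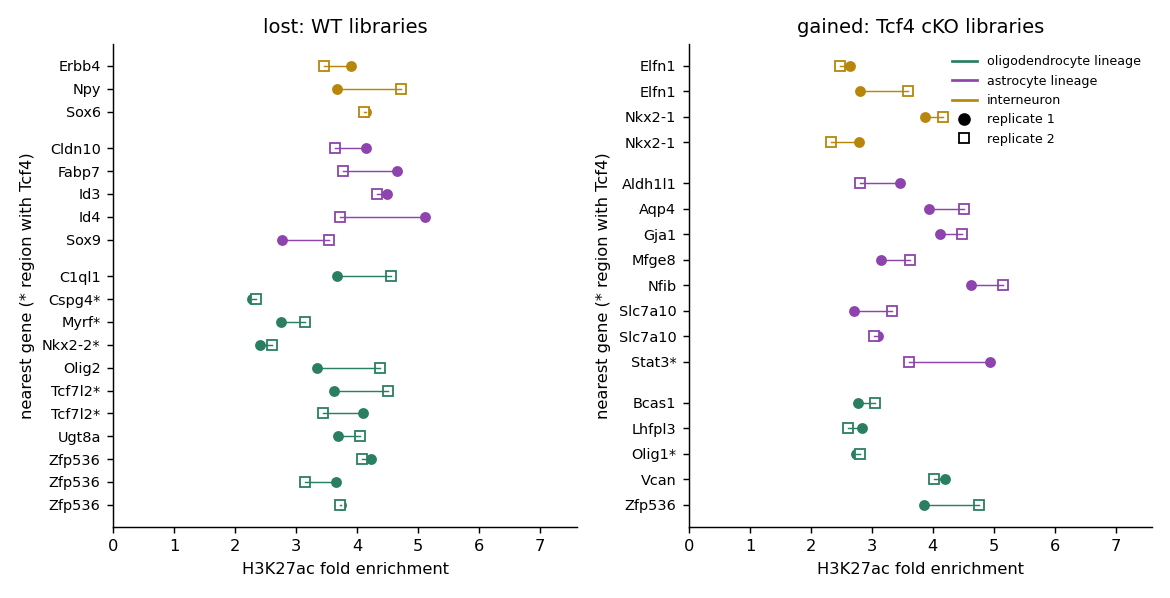
H3K27ac fold enrichment (horizontal axis) at each lost region in the WT libraries (left) and each gained region in the Tcf4 cKO libraries (right) nearest to a gene of 3 lists, with replicate 1 filled and replicate 2 open; an asterisk marks Tcf4. Lost regions of the oligodendrocyte lineage run from 2.28 to 4.55 and gained regions of the astrocyte lineage from 2.71 to 5.14.

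Interneuron genes were nearest to 119 regions, with 3 lost (2.52%) and 4 gained (3.36%), shares near those of all regions. The lost ones lay at Erbb4, the neuregulin receptor, with 3.91 and 3.45, at the neuropeptide gene Npy with 3.66 and 4.72, and at the transcription factor Sox6 with 4.14 and 4.11. The gained ones lay at Elfn1, 2 regions, and at Nkx2-1, 2 regions, the gene whose promoter drives the Cre. E proteins and Id inhibitors had 2 lost of 65 regions (3.08%, against 4.23% of all), nearest to Id3 and Id4. They had 1 gained region (1.54%, against 2.53% of all), the promoter of Id1 with 3.01 and 3.12. Pan-neuronal genes had 4 lost regions of 55 (7.27%), at Elavl3 and Celf4, and 2 gained (3.64%), at Map2 and Celf4, shares like those of the oligodendrocyte list. Projection neuron genes had 1 lost of 20 regions, at Cux2. Endothelial and mural genes had 1 lost of 19, at Pecam1, and 1 gained, at Cldn5 (5.26% each), and microglial genes had 0 of either among 5 regions. Immediate early genes, which respond to stress and dissociation, lost 2 of 35 regions (5.71%, against 4.23% of all), at Atf3 and Jun, and gained 0. The 10 constitutive genes had 0 of either among 17 regions.

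Other regions at genes the study examined did not follow the genotype in all libraries. Fgfr3, a receptor of astrocyte precursors, had 1 region in several libraries, its promoter, with 3.02 and 3.44 in WT, no peak in Tcf4 cKO replicate 1 and 2.40 in replicate 2. Nfix had an intronic region with 2.95 and 2.69 in WT and 3.32 in Tcf4 cKO replicate 1, and another with 3.61 in WT replicate 2 and 2.66 and 2.46 in Tcf4 cKO. The promoter of Myrf held 2.99 and 3.34 in WT, 3.32 in Tcf4 cKO replicate 1 and no peak in replicate 2. Olig2 kept 3 regions, the highest of them 20781 bp from its start, with 5.05 and 4.23 in WT and 5.60 and 4.46 in Tcf4 cKO, and Pdgfra, the growth factor receptor of OPCs, kept 4.

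The strongest changed regions lay mostly at genes outside the glial lists. Ranked by the weaker of both replicates, the first lost regions were nearest to Gm33543 with 6.56 and 6.03, Ppm1b with 6.31 and 5.94, Eif2s3y on the Y chromosome with 5.93 and 7.82, Cdkn2a with 5.92 and 6.34, Il20ra with 6.35 and 5.89, Chrm2 with 6.01 and 5.84, Olfr1507 with 5.76 and 8.07 and Lmo4 with 6.46 and 5.76. Chrm2 encodes a muscarinic acetylcholine receptor and Lmo4 a LIM-domain transcription cofactor. Of these 8, 4 held Tcf4, against 28.2% of all distal and 32.1% of all promoter lost regions. The Cdkn2a region (chr4:89264715-89265051) had no peak in any ATAC-seq or H3K4me1 library. Among the first gained regions were those nearest to Grid1 with 7.46 and 7.73, 1110057P08Rik with 7.57 and 6.47, Arrdc3 with 6.73 and 6.33, Skint5 with 6.31 and 9.71, Barhl2 with 6.03 and 6.91, Gbe1 with 6.52 and 5.90 and Ube2dnl2 with 5.88 and 5.91. Of these 7, 3 held Tcf4, those near Grid1, Barhl2 and Ube2dnl2, against 7.67% of all distal and 12.4% of all promoter gained regions. The Barhl2 region had no ATAC-seq peak in any library, and the Ube2dnl2 region had no peak of ATAC-seq, H3K4me1 or H3K27me3. The gained region near Grid1, a glutamate receptor subunit (chr14:34780970-34781467), had ATAC-seq and H3K4me1 peaks in the Tcf4 cKO libraries alone, and H3K27me3 in all 4.

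Changed regions were spread over many genes. Lost regions were nearest to 1544 genes and gained regions to 940, 180 of them shared, and 25 genes had at least 3 lost regions. Elmo1, a regulator of cell engulfment and migration, Msrb3, Nr2f2, a nuclear receptor of ventral forebrain development, and Rybp, a Polycomb component, had 4 lost regions each and 0 gained. At Elmo1, 3 of the 4 held Tcf4, against 28.2% of all distal lost regions, the highest an intronic region with 6.32 and 4.72. At Nr2f2 the lost regions ran from 3.38 to 6.77, and none held a Tcf4 region of both anti-Flag libraries. Ctnnd2, a catenin of synapses, had 4 gained and 1 lost region.

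Cwc22, a splicing factor gene, stood apart with 12 gained and 0 lost regions, all within 157.4 kb (chr2:77869793-78027239). In this interval WT H3K27ac libraries held 1 and 2 peaks and Tcf4 cKO libraries 17 and 16, with fold enrichment of the gained regions from 1.73 to 3.99. Peaks of the other assays were also more numerous in Tcf4 cKO there. ATAC-seq peaks numbered 1 and 2 in WT and 14 and 9 in Tcf4 cKO, H3K4me1 peaks 2 and 1 against 17 and 14, and H3K27me3 peaks 6 and 7 against 15 and 8. Peak number and peak height differed in direction: the highest fold enrichment in the interval was 6.01 and 4.74 in WT against 4.45 and 4.31 in Tcf4 cKO for H3K27ac, and 9.62 and 11.6 against 6.83 and 6.73 for ATAC-seq. What the peaks of all 4 assays share in this interval was not tested, so the 12 regions cannot be read as a change of H3K27ac alone. Leaving the interval out gave 1029 gained regions.

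At the 13799 kept regions, levels in Tcf4 cKO and WT were compared by limma on quantile-normalized log2 fold enrichment. No region passed an adjusted p of 0.05 (0 lower, 0% of those tested, and 0 higher, 0%, limma, smallest adjusted p = 0.34). At an unadjusted p under 0.05, 456 regions were lower and 476 higher, 6.75% of all. Differences were small, with 5th and 95th percentiles of −0.31 and 0.31, and 0 regions differed by more than 1 on the log2 scale. The rule for kept regions limits this range, since a region without a peak in even 1 library was left out. The 95% interval of a single region reached a median of 0.35 to either side (1.27-fold). The test adjusted over all regions asks for more, since differences of up to 0.84 did not pass it. Across the regions, log2 levels correlated at r = 0.73 between WT replicates, 0.74 between Tcf4 cKO replicates and 0.69 to 0.74 between genotypes, so libraries of 1 genotype were about as alike as libraries of both.

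The regions with the smallest p in each direction did not pass the adjusted threshold. Below WT were a region nearest to Gsc with 8.62 and 9.12 in WT and 5.77 and 5.03 in Tcf4 cKO (log2 difference −0.72 ± 0.34, 95% half-width), 1 near the ephrin receptor gene Epha3 with 7.65 and 7.72 against 4.62 and 4.64, the promoter of Kctd5 with 6.20 and 6.33 against 3.77 and 3.77, and that of Gm3411. Above WT were the promoters of Gm2956 with 4.26 and 3.53 in WT and 5.53 and 8.54 in Tcf4 cKO (0.84 ± 0.39), Gm21586, Rasgef1b with 2.73 and 2.78 against 4.06 and 4.63, and Pstpip2. Their adjusted p was 0.34 each (limma). Gm3411, Gm2956 and Gm21586 belong to predicted gene families with close copies, where read assignment is uncertain. With the replicate number as a block, 6 regions were lower and 7 higher at an adjusted p under 0.05, these 8 among them.

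**Figure D5:**
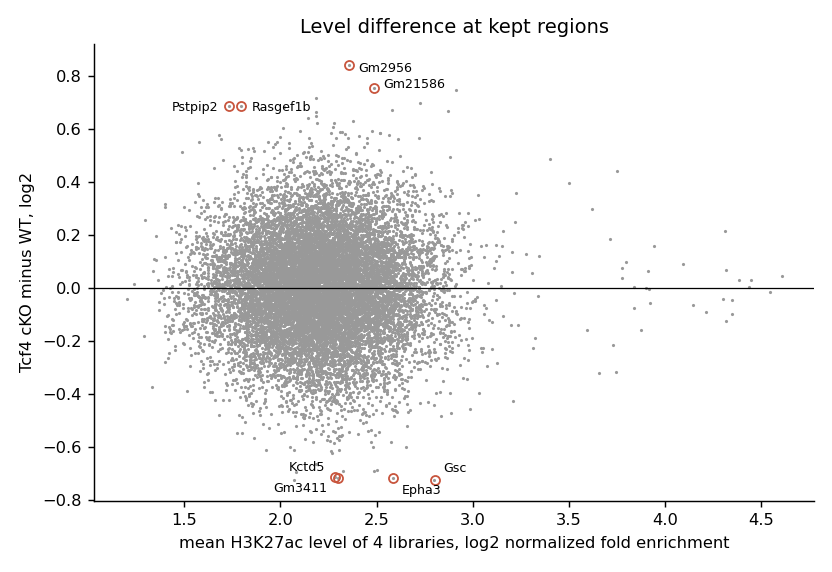
Difference in H3K27ac level between Tcf4 cKO and WT (vertical axis, log2) against the mean level of the 4 libraries (horizontal axis, log2 normalized fold enrichment) at 13799 kept regions, 1 point per region. The circled regions, named by nearest gene, have the smallest p in each direction and lie between −0.72 and 0.84.

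Lists of lineage genes had small median differences at kept regions. The median log2 difference was 0.07 over 41 kept regions of oligodendrocyte-lineage genes, −0.10 over 32 of astrocyte-lineage genes and 0.06 over 25 of interneuron genes, against 3.8e-05 over all kept regions. Regions at an unadjusted p under 0.05 were 0 for the oligodendrocyte list, 3 lower and 1 higher of 32 for the astrocyte list (12.5%, against 6.75% of all kept regions), and 1 lower and 2 higher of 25 for the interneuron list. Nfia, an NFI factor that starts gliogenesis, had 1 in each direction: a promoter region with 4.12 and 5.76 in WT and 3.94 and 3.22 in Tcf4 cKO, and another with 3.01 and 3.74 against 4.39 and 4.20. Ntsr2, a neurotensin receptor of astrocytes, had 4.76 and 4.80 in WT against 3.90 and 3.16, and Atp1b2, a sodium pump subunit, 4.15 and 3.63 against 2.86 and 3.11. Of interneuron genes, a region near somatostatin (Sst) had 3.92 and 3.68 against 4.37 and 5.13. None of these passed after adjustment (adjusted p from 0.64 to 0.73, limma). At distal kept regions the median log2 difference was −0.0041 for the 1897 with Tcf4 and 0.03 for the 1485 without.

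CAGCTG, 1 form of the E-box, had a higher share among lost than among gained elements, with 95% intervals that did not overlap. Within 75 bp of the highest H3K27ac summit, on both strands, it was found at 19.0% of distal lost (95% Wilson interval 16.9 to 21.2), 11.4% of distal gained (9.38 to 13.8) and 14.1% of distal kept regions, against 13.7% of all 24348 distal regions. Among lost regions it was at 25.5% of those with Tcf4 and 16.4% of those without. The general form CANNTG, which includes it, was at 60.9% of lost, 55.7% of gained and 56.8% of all. No other single form of the E-box was counted in these classes. The NFI half-site TTGGCA was as frequent in each class as in all distal regions to within 1 percentage point, at 9.18% of lost, 9.03% of gained, 8.78% of kept and 9.18% of all. The remaining cores, also on both strands, stayed near all distal regions: the SOX core ACAANG was at 31.1% of lost and 28.7% of gained regions against 29.7%, the AP-1 core TGANTCA at 4.91% and 3.84% against 4.58%, the homeodomain core TAATTA at 3.56% and 2.72% against 2.81%, and GGGCGG, the GC box, at 4.83% and 3.71% against 4.38%. Mean GC content of the windows was 49.4% for lost, 50.4% for gained and 52.0% for kept regions.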

How the data were processed

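Narrow peak lists of 4 H3K27ac Cut&Tag libraries were analysed with those of ATAC-seq, H3K4me1 and anti-Flag Tcf4 and the broad lists of H3K27me3. The authors trimmed reads with Trim Galore, aligned them to mm10 with Bowtie2, kept aligned pairs without duplicates with SAMtools and called peaks per library with MACS2. For each peak the authors deposited its fold enrichment over the local background with significance as −log10 of the p-value and of the q-value, and for narrow peaks the summit. No control library or read count was used, so depth is unknown. The deposited ATAC-seq consensus and footprint tables hold the authors' comparisons and were not used.

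Overlaps (1 bp, bedtools 2.31.1), start sites (GENCODE M21) and sequences (GRCm38, pysam 0.24.0) were computed in Python 3.11.15 with pandas 2.3.3 and scipy 1.17.1. A region took the nearest protein-coding start site as its gene, its level was the highest fold enrichment of a library, and levels at kept regions were tested by limma 3.58.1 with an intensity trend and Benjamini-Hochberg adjustment. Merging, motif search and fit were tested on simulated data. The members and gene lists were chosen with earlier results of these data known. Genes were named if they were nearest to the 8 strongest lost or gained regions, to the 4 kept regions with the smallest p each way, to a changed region of the lineage or interneuron lists, to the most changed regions, or were among Tcf4, Olig2, Myrf, Tcf7l2, Fgfr3, Nfib and Nfix. One of the strongest gained regions is not reported here. Pdgfra, Id1 and members of the smaller lists were named after their values were seen. Alternatives varied the extent, merging and threshold of peaks, list length, promoter, overlap and motif windows, normalization, filter, block and libraries.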

Additional observations from a re-analysis of the deposited data

How the results depend on the processing

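Fold enrichment and peak calls depend on depth, which the lists do not give, and with 2 libraries per genotype 1 library decided many counts. Reducing peaks to 1 kb windows or merging within 500 bp gave 1753 or 1740 lost, 1023 or 1016 gained and 13879 or 13881 kept regions. With a −log10 q of 5 or more required of every peak, 864 regions were lost, 488 gained and 7030 kept, promoters were 49.8% of lost and 41.8% of gained regions, Tcf4 was at 55.5% of distal lost and 28.9% of distal gained regions, and 2 regions at oligodendrocyte-lineage genes were lost. Lists of equal length were chosen for the shares, gene lists and ATAC-seq after seeing the data, as was leaving out ATAC-seq libraries. With them promoters were 32.4% of lost regions, and Tcf4 was at 36.4% of distal lost and 10.2% of distal gained regions. Of 119 regions at oligodendrocyte-lineage genes 4 were then lost, against 1233 of 34793 regions in all. Promoters within 2.5 kb were 34.7% of lost and 28.8% of gained regions. In windows of 150 bp on each side, CAGCTG was at 32.3% of distal lost and TTGGCA at 16.8% of distal gained regions. A wider window holds more matches, and neither core was counted in the other classes at this width. The difference in CAGCTG between lost and gained regions was therefore not rechecked here.

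Leaving out 1 library at a time gave 2575 to 7511 lost, 1613 to 5700 gained and 14335 to 15832 kept regions, with promoters at 20.7% to 37.9% of lost and 17.8% to 30.9% of gained regions. Tcf4 was then at 14.0% to 33.0% of distal lost and 4.23% to 13.2% of distal gained regions. CAGCTG was at 14.8% to 17.7% of distal lost and TTGGCA at 9.08% to 11.4% of distal gained regions. At oligodendrocyte-lineage genes lay 14 to 38 lost regions, the most being 38 of 7511 lost regions, against 11 of 1744 with all libraries. At astrocyte-lineage genes lay 14 to 29 gained regions, the most being 29 of 5700 gained regions, against 8 of 1041. A class of 1 remaining library is larger by construction.

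At kept regions limma gave 0 lower and 0 higher under median centring, no normalization, log2(fold enrichment + 1), length-weighted means and no trend. It gave 1 lower and 4 higher with a peak in at least 3 libraries, 4 lower and 3 higher where all 4 peaks reached a −log10 q of 5, and 0 to 3 lower and 0 to 6 higher without 1 library, where the lone library is assumed to vary like the other group. With the replicate block 6 were lower and 7 higher. The numbers were only shared labels, since the deviations of same-numbered replicates correlated at r = 0.027 over kept regions.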

Other observations

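Few regions changed in several assays at once. Of 1264 distal lost regions, 52 also had ATAC-seq peaks in the WT libraries alone (4.11%, against 2.29% of all distal regions). H3K4me1 had this pattern at 38 (3.01%, against 1.70% of all) and the reverse pattern at 35 (2.77%, against 4.07%). At 8 regions both assays had peaks in the WT libraries alone. These 8, picked out after their values were seen, were nearest to 1700025G04Rik, Mthfd1l, Sh3bp5, Nostrin, Pld1, Lrit3, Trpm1 and Ulk4. Of 808 distal gained regions 66 followed in ATAC-seq (8.17%, against 1.82% of all), 76 in H3K4me1 (9.41%, against 4.07%) and 14 in both. Of these 14, 4 lay in the interval at Cwc22, and the others were nearest to Grid1, Prkdc, Rala, Capzb, Grm7, Bicra, Ankrd10, Agt, Capn9 and Oxsr1. Agt encodes angiotensinogen, which astrocytes make, and its region had 2.70 and 3.21 in the Tcf4 cKO libraries. Tcf4 was present at 14 of the 52 lost regions that followed in ATAC-seq (26.9%, against 28.2% of all distal lost regions). It was present at 1 of the 66 gained ones, near Grid1 (1.52%, against 7.67% of all distal gained regions). For regions that followed in both assays, no share over all distal regions was computed.

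After the interval at Cwc22, the 1 Mb window with most gained regions was on chromosome 4 from 42 to 43 Mb, with 6 gained, 2 lost and 10 kept of 47 regions, and it includes the kept promoter of Gm21586. The window with most lost regions, on chromosome 5 from 140 to 141 Mb, held 6 lost and 2 gained of 43. By chromosome, the share of lost regions ran from 3.24% on X to 6.11% on 14, leaving out Y with 11 regions and M with 6. Chromosome 14 also had the highest share of gained regions among these, 3.43% against 2.53% of all regions.

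The settings that gave calls at kept regions shared some regions. Regions nearest to Gsc and Kctd5 were lower, and 1 near E030030I06Rik higher, both where all 4 peaks reached a −log10 q of 5 and with the replicate block. Pstpip2 and Gm2956 were higher both with the block and with a peak in at least 3 libraries. Where all 4 peaks reached a −log10 q of 5, regions at Ube2m and Gm10719 were also lower. Those at mt-Nd6 and Man2a1 were also higher (Man2a1 3.48 and 3.67 in WT and 5.48 and 5.45 in Tcf4 cKO, adjusted p = 0.011, limma). The mt-Nd6 region (adjusted p = 0.00024, limma) lies on the mitochondrial chromosome, M, so its rise cannot be read as a change of H3K27ac.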
